A study of Mus musculus with 15 samples.

Results

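The expression of mmu-miR-210 was examined in transplanted mouse livers. The microarray carries 567 mouse miRNAs, and miR-210 is 1 of them, selected by its name and read on every array. Earlier results of these data were known when it was chosen. Each of the 15 arrays holds 1 liver graft. The grafts form 5 groups of 3 mice, with 4 groups of allografts taken 5, 8, 14 or 100 days after transplantation and 1 group of syngeneic grafts taken after 5 days. In the allografts, male B10.BR livers (H2-Kk) were transplanted orthotopically into male B10.D2 recipients (H2-Kd) with no immunosuppressant. The labels give this same strain pair for the syngeneic arrays too, so those 3 arrays were grouped by their titles, and their own strain is not known here. There was no syngeneic graft after day 5 and no liver without transplantation among the arrays, so time after surgery and time after allogeneic transplantation cannot be told apart beyond day 5.

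miR-210 is the miRNA best known for being transcribed under hypoxia, through the transcription factor HIF1A. It lowers proteins of mitochondrial respiration, among them the iron-sulfur cluster scaffold ISCU, and in T cells it is induced on activation and acts back on Hif1a mRNA. A liver graft passes through ischemia and reperfusion and then, in an allograft, through infiltration by leukocytes. The comparisons ask whether miR-210 differed between rejecting, accepted and syngeneic grafts. RNA came from whole grafts, where fewer cells of a type and less of a miRNA per cell cannot be told apart.

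In the RefSeq annotation of GRCm38.p6, Mir210 lies on chromosome 7 from 141221384 to 141221493 on the minus strand. Its 110-base hairpin overlaps no other gene in that table and lies between Rassf7, 2725 bases away, and Gm51460, 6712 bases away. The array uses the old name without an arm, which later became the 3p arm. The files used here hold no probe sequences, so the arm could not be read from them. Both arms are shown because a reader needs the seed, bases 2 to 8, which is in capitals and guides target pairing. The 3p arm lies at chr7:141221407-141221428 and the 5p arm at chr7:141221445-141221466. The 5p arms of miR-155 and miR-93, which had profiles close to that of miR-210, are given for comparison.

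mmu-miR-210-3p: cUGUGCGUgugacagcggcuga
mmu-miR-210-5p: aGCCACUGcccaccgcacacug
mmu-miR-155-5p: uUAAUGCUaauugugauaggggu
mmu-miR-93-5p: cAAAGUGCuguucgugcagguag

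Of the 1679 mature mouse miRNAs in the same RefSeq table, 0 others have the seed of miR-210-3p, so miR-210 has no seed family on which its values could be checked. The seeds of miR-155-5p and miR-93-5p differ from it and from each other.

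miR-210 was dim. It was measured by 2 probes of 10 spots each, and its signal is the sum over both probes of the mean background-subtracted intensity. Because signals are background-subtracted, they can fall below 0. Detection required that at least 0.5 of the usable spots of 1 probe carry the scanner software's flag for well above background. By this rule miR-210 was detected on 8 of the 15 arrays. Syngeneic arrays detected 71 to 102 mouse miRNAs, and allograft arrays 84 to 114 for day 5, 99 to 102 for day 8, 98 to 115 for day 14 and 60 to 90 for day 100. Replicate 1 of day 100 stood apart, with an additive error of 13.1 intensity units by the software's estimate against 2.67 to 3.66 on the other 14 arrays. The folds over day 100 are therefore also given without it. The tests on a linear scale were not repeated without it. The arrays lay on 2 slides. Slide 1 held day 8, day 14 and syngeneic replicates 1 and 2, and slide 2 held day 5, day 100 and syngeneic replicate 3.

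In the syngeneic grafts the signal of miR-210 was 2.65, 2.01 and 10.9 intensity units, with a mean of 5.19 ± 4.95 (SD, n = 3). On day 5 the allografts gave 28.7, 36.3 and 23.2, with a mean of 29.4 ± 6.56 (SD, n = 3). On day 8 they gave 41.9, 55.9 and 42.4, with a mean of 46.7 ± 7.92 (SD, n = 3). All 6 of these allografts were above all 3 syngeneic grafts, and the day 8 grafts were above those of day 5. On day 14 the signal was 77.1, 50.5 and 36.1, with a mean of 54.6 ± 20.8 (SD, n = 3), so the highest and the lowest graft of day 14 lay on either side of the day 8 grafts. On day 100 it was -59.4, 3.20 and 11.0, where the first value is that of the noisy replicate 1. Of the other day 100 grafts, 3.20 lay within the range of the syngeneic grafts and 11.0 just above it.

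**Figure D1:**
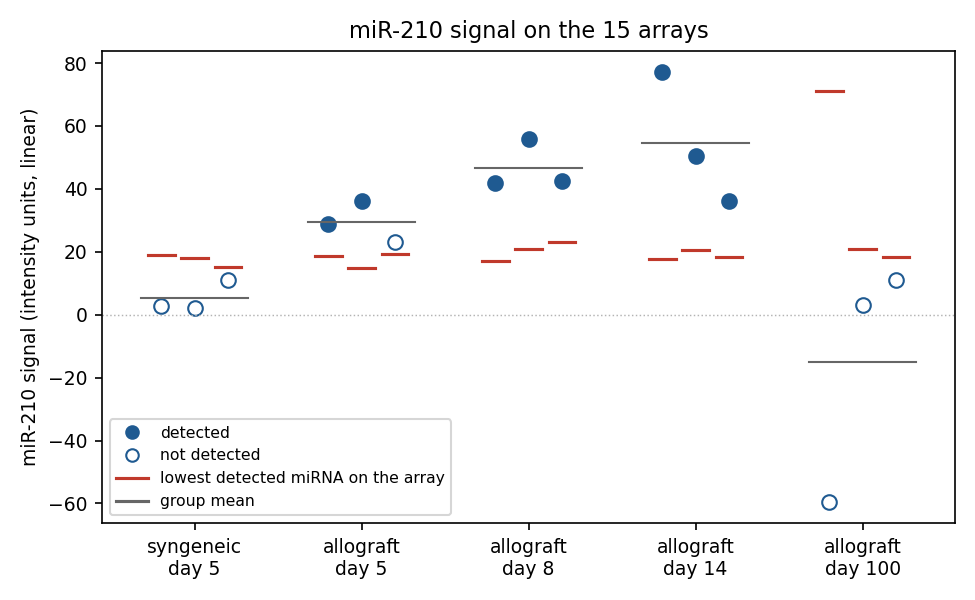
Signal of miR-210 (background-subtracted intensity, linear scale) on each of the 15 arrays, by group. Filled points are arrays where miR-210 was detected and open points where it was not, the red mark is the lowest signal of any detected miRNA on that array, and the gray line is the mean of the 3 arrays. Day 8 and day 14 arrays lie between 36.1 and 77.1, above their red marks, while the syngeneic and day 100 arrays lie below theirs.

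The flags of single spots, which are set on the same spots, also set days 5, 8 and 14 apart from the syngeneic grafts and day 100. The brighter probe, A_54_P1443, had 0 of 30 spots well above background in the syngeneic grafts, 24 of 30 on day 5, 30 of 30 on day 8, 30 of 30 on day 14 and 0 of 30 on day 100. miR-210 was thus detected in 0 of 3 syngeneic grafts, 2 of 3 allografts on day 5, 3 of 3 on day 8, 3 of 3 on day 14 and 0 of 3 on day 100. The day 5 graft in which it was not detected, replicate 3, had 4 of 10 spots of this probe above background, just under the limit. The second probe, A_54_P1444, was dimmer, with 0, 1, 4, 12 and 0 of 30 spots above background in the same order of groups. On the 8 arrays where miR-210 was detected, its signal was 31.3% to 40.9% of that of the first probe. The software's own call per miRNA, which asks less of a spot, was positive in 1 of 3 syngeneic grafts, 3 of 3 on each of days 5, 8 and 14, and 0 of 3 on day 100. Of the 300 spots of miR-210 on all arrays, 10 were outliers left out by their flags and 0 were saturated.

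**Figure D2:**
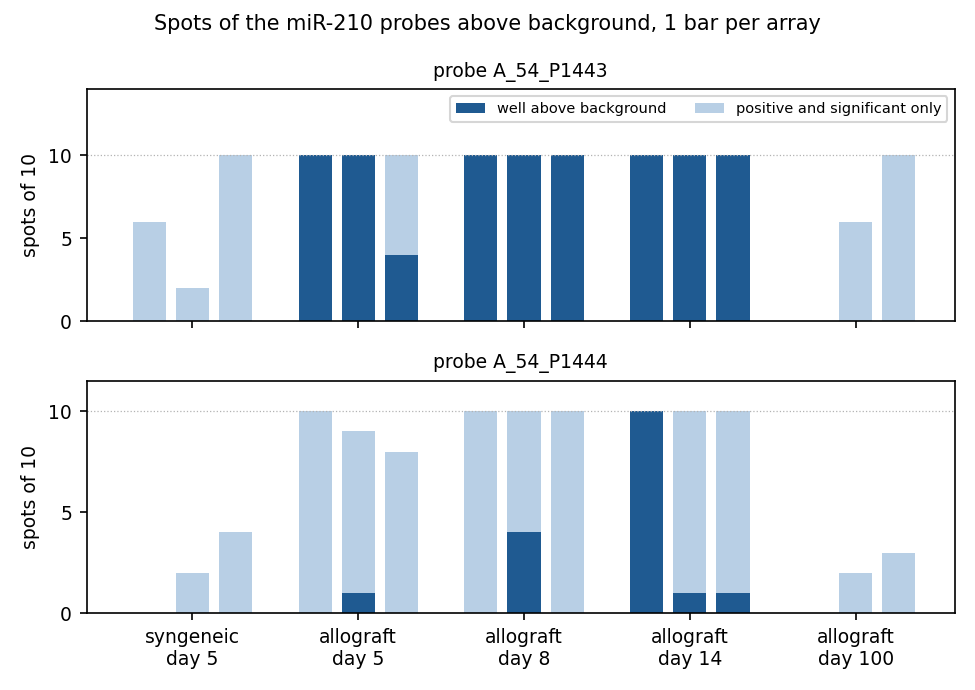
Number of the 10 spots of each miR-210 probe that were well above background (dark) or only positive and significant by the software's weaker flag (light), with 1 bar per array and 3 bars per group. The first probe reaches 10 dark spots on all arrays of day 8 and day 14 and 0 in the syngeneic and day 100 grafts, and the second probe reaches 10 on 1 array of day 14.

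The 429 mouse miRNAs that were detected on no array show how high a signal can be without detection. On each array of day 5, day 8 and day 14, 0 of these 429 had a signal at or above that of miR-210. The 429 were chosen as undetected on these same arrays. Where miR-210 was detected, that outcome was thus largely set by the choice. In the syngeneic grafts 11.9%, 18.4% and 3.96% of them were at or above it, and on day 100 51.5%, 21.2% and 1.17%. miR-210 was in the upper part of the undetected miRNAs in syngeneic replicate 3 and day 100 replicate 3, and in their midst in the noisy array.

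For comparison between arrays, each signal was divided by the 75th percentile of the 52 miRNAs detected on all 15 arrays, and is given as a percent of that value. The scaled signal was 0.516%, 0.509% and 1.77% in the syngeneic grafts. It was 3.24%, 3.82% and 5.07% on day 5, and 5.83%, 7.18% and 5.12% on day 8. It was 9.38%, 6.74% and 3.55% on day 14, and -5.93%, 0.621% and 1.42% on day 100. Scaling kept every array of days 5, 8 and 14 above every syngeneic and day 100 array. By mean scaled signal the order was day 14 (6.55% ± 2.92), day 8 (6.04% ± 1.05), day 5 (4.04% ± 0.935), syngeneic (0.931% ± 0.725) and day 100 (-1.29% ± 4.03), each as mean ± SD of 3 grafts. Neighbors in this order overlapped for day 14 with day 8 and for the syngeneic grafts with day 100. Day 8 and day 5 were apart only by the gap from 5.12% to 5.07%.

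Over all 5 groups, the scaled signals without any floor differed by an exact permutation test of the one-way F (F = 6.23, p = 0.00186, n = 3 per group, over 1401400 divisions of the arrays into 5 groups of 3). Without scaling, the exact permutation p of the intensities was 0.000689, and on the floored log2 values it was 0.00627. For 1 pair of groups, 3 grafts against 3 cannot give a two-sided exact p below 0.1. That value was reached by days 5, 8 and 14 against the syngeneic grafts and against day 100, and by day 8 against day 5. The exact p was 0.3 for day 14 against day 5, 0.9 for day 14 against day 8 and 0.6 for day 100 against the syngeneic grafts.

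The fit across miRNAs used log2 values, in which any scaled signal below 2.70% was set to 2.70%, a log2 floor of -5.21. All 3 syngeneic and all 3 day 100 grafts were at this floor for miR-210, so their spread is 0 and fitted differences from them are set in part by the floor. The log2 scaled signal was -4.95, -4.71 and -4.30 on day 5, -4.10, -3.80 and -4.29 on day 8, and -3.41, -3.89 and -4.82 on day 14. For a group below detection, the fold is therefore given as a lower bound, taken against the lowest detected signal on each array of that group. This bound compares means and carries no sampling error. The design gives 3 mice per group. The limma fit uses a spread shared by all groups, to which the syngeneic and day 100 grafts at the floor add 0. The SD of the log2 values was 0.33, 0.25 and 0.71 on days 5, 8 and 14. The limma p-values of miR-210 thus rest on a spread between mice that the floor makes smaller.

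miR-210 was higher in the allografts of day 8 and day 14 than in the syngeneic grafts. On day 8 it was at least 1.74-fold higher (mean log2 -4.06 against -5.21, difference 1.15, SE 0.28, adjusted p = 0.0066, limma with Benjamini-Hochberg adjustment), and 40.8% of the 103 miRNAs tested were called in that comparison, 23.3% as higher and 17.5% as lower. On day 14 it was at least 1.76-fold higher (mean log2 -4.04, difference 1.17, SE 0.28, adjusted p = 0.0041, limma), where 45.6% of miRNAs were called, 27.2% as higher and 18.4% as lower. The arrays did not overlap for miR-210 on either day, nor for 51.5% of miRNAs on day 8 and 54.4% on day 14. Among the 103 differences, ordered from the highest, miR-210 was number 11 on day 8 and number 15 on day 14. The median difference of all miRNAs tested was 0.14 on day 8 and 0.07 on day 14. On slide 1 alone, without a floor, the scaled signals of 5.12% to 7.18% on day 8 and 3.55% to 9.38% on day 14 stood against 0.516% and 0.509% in syngeneic replicates 1 and 2. Under a normexp background correction with an offset of 50, the differences turned to -0.10 and -0.17. The median of the 429 undetected miRNAs was then -0.49 and -0.61, and miR-210 lay 0.39 and 0.45 above it. With a doubled floor neither difference was called (adjusted p = 0.56 and 0.091, limma). Day 14 was not called either by the test per miRNA that the methods name (adjusted p = 0.12).

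On day 5, a rise of miR-210 over the syngeneic grafts was not called (difference 0.56, SE 0.28, 95% interval -0.05 to 1.17, adjusted p = 0.18, limma). The lower bound from the means was 1.15-fold, with the undetected replicate 3 of day 5 entered at its measured signal. Replicates 1 and 2 of day 5, at log2 -4.95 and -4.71, were below the lowest detected signal of syngeneic replicate 2, at -4.47. The arrays of both groups did not overlap, as for 30.1% of the 103 miRNAs, and 25.2% were called, 18.4% as higher and 6.8% as lower. This is the 1 comparison in which both kinds of graft were of the same day. Only syngeneic replicate 3 shared slide 2 with the day 5 allografts, and its scaled signal of 1.77% stood against 3.24% to 5.07%. With slide as a block, the day 5 difference was not called (SE 0.41, adjusted p = 0.40, limma). The day 5 difference was called with the floor divided by 4 (difference 2.09, adjusted p = 0.0083, limma) and with the software's total signal (difference 0.87, adjusted p = 0.032, limma). It turned to -0.25 under normexp, where the median of the 429 undetected miRNAs was -0.49. On day 100, the difference from the syngeneic grafts was 0 because both groups were at the floor (95% interval -0.61 to 0.61, adjusted p = 1, limma), while 31.1% of miRNAs were called, 16.5% as higher and 14.6% as lower. Without scaling, the calls were 25 higher and 0 lower on day 5, 37 and 4 on day 8, 45 and 3 on day 14, and 19 and 5 on day 100. With the 75th percentile over all miRNAs they were 9 and 1 on day 5, and with median scaling 21 and 4. A difference below the floor was not detectable on these arrays.

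Among the allografts, miR-210 was at least 1.49-fold higher on day 14 than on day 100 (difference 1.17, SE 0.28, adjusted p = 0.0060, limma), where 51.5% of miRNAs were called. On day 8 it was at least 1.47-fold higher than on day 100 (difference 1.15, SE 0.28, adjusted p = 0.015, limma), where 19.4% were called. In both comparisons the arrays did not overlap for miR-210, as for 65% and 59.2% of miRNAs. Without the noisy array of day 100 these bounds were 1.97-fold and 1.94-fold, and the adjusted p from limma was 0.017 for day 14 and 0.042 for day 8. Both pairs of groups lie on different slides. For day 14 and day 8 in turn, the calls were lost with slide as a block (adjusted p = 0.15 and 0.18, limma), with a doubled floor (adjusted p = 0.082 and 0.52) and under normexp (adjusted p = 0.43 and 0.59). The test that the methods name did not call day 14 after adjustment (adjusted p = 0.095), and without replicate 2 of day 8 the day 8 comparison was not called (difference 1.01, adjusted p = 0.077, limma).

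Day 5 and day 100 shared slide 2. There the 3 allografts of day 5 were above all 3 of day 100, with a difference of 0.56 that was not called (SE 0.28, adjusted p = 0.17, limma). 29.1% of miRNAs were called in this comparison and 46.6% had arrays that did not overlap. No lower bound above 1 could be given with all arrays, and without the noisy array it was 1.29-fold. On a linear scale without a floor, the difference was 5.34 percentage points of the scaling value and was called (adjusted p = 0.045, limma). In that fit the noisy array entered at -5.93%, against 0.621% and 1.42% on the other day 100 arrays. The linear fit was not repeated without the noisy array.

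From day 5 to day 14 miR-210 was not shown to change. Day 5 lay on slide 2 and days 8 and 14 on slide 1, so both comparisons with day 5 were made across slides. With slide as a block, the adjusted p was 0.45 for day 8 and 0.49 for day 14 against day 5 (SE 0.53 each, limma). Day 8 exceeded day 5 by 0.59 (95% interval -0.02 to 1.20, adjusted p = 0.24, limma), with 1.94% of miRNAs called and 55.3% that did not overlap. Day 14 exceeded day 5 by 0.61 (95% interval 0.00 to 1.22, adjusted p = 0.17, limma), with 12.6% called. Without replicate 3 of day 14, the lowest graft of that day, the latter difference was 1.00 and was called (adjusted p = 0.011, limma). Day 14 and day 8 differed by 0.02 (95% interval -0.59 to 0.63, adjusted p = 0.98, limma), with 5.83% called. The sign of that difference turned when replicate 3 of day 8 or replicate 1 or 2 of day 14 was left out. The moderated F across the 5 groups was 8.41 (adjusted p = 0.0048, limma), and 64.1% of miRNAs passed it.

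**Figure D3:**
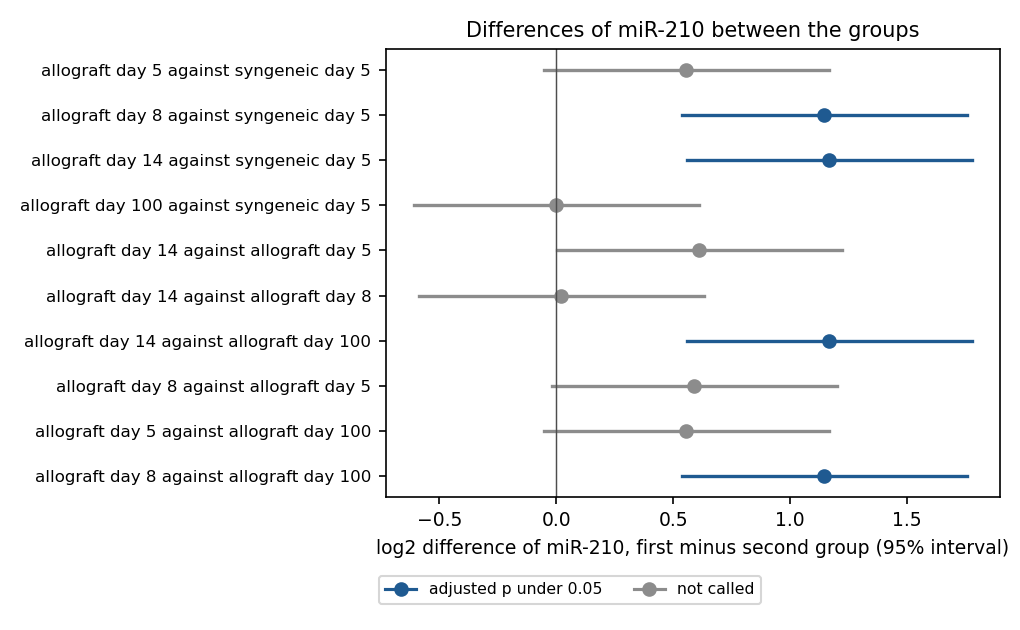
Log2 difference of floored miR-210 signal for the 10 pairs of groups, first named group minus second, with 95% intervals from limma. Blue marks an adjusted p under 0.05. The 4 called differences are those of day 8 and day 14 against the syngeneic grafts and against day 100, at 1.15 to 1.17.

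Detection on 0 syngeneic, 3 day 8, 3 day 14 and 0 day 100 arrays was shared by 5 miRNAs of the array: miR-135a*, miR-188-5p, miR-210, miR-350 and miR-500. On day 5, miR-188-5p was detected in 3 of 3 allografts, miR-350 and miR-500 in 2 of 3 as miR-210 was, and miR-135a* in 1 of 3.

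The miRNA with the profile most like that of miR-210 was miR-155, which is induced in activated lymphocytes and macrophages. Over the 15 arrays, Pearson's r of the log2 values was 0.97 for miR-155, 0.89 for miR-135a* and 0.86 for miR-93, a member of the miR-106b cluster. Arrays at the floor for both miRNAs add to such values, and all points share the scaling value of their array. Over the 9 arrays where both were above the floor, r was 0.98 for miR-155 and 0.71 for miR-93, and it was 0.75 for miR-135a* over 8 arrays. The lowest values of r were -0.74 for miR-148a, -0.65 for miR-193 and -0.65 for miR-122, of which miR-122 and miR-148a are abundant in hepatocytes.

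miR-155 was detected in 0 of 3 syngeneic grafts, 3 of 3 allografts on each of days 5, 8 and 14, and 1 of 3 on day 100. Its mean scaled signal was 0.326% ± 0.218 in the syngeneic grafts, and 6.30% ± 1.83, 9.39% ± 1.11, 11.1% ± 4.45 and 0.757% ± 4.32 in the allografts of days 5, 8, 14 and 100 (SD, n = 3). Replicate 1 was the highest and replicate 3 the lowest graft of day 14 for miR-155 as for miR-210. On day 5, however, miR-155 was at least 1.78-fold higher than in the syngeneic grafts and was called (floored log2 difference 1.18, SE 0.27, adjusted p = 0.0076, limma), while miR-210 was not called. Whether these 2 miRNAs differ from each other on day 5 was not tested.

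**Figure D4:**
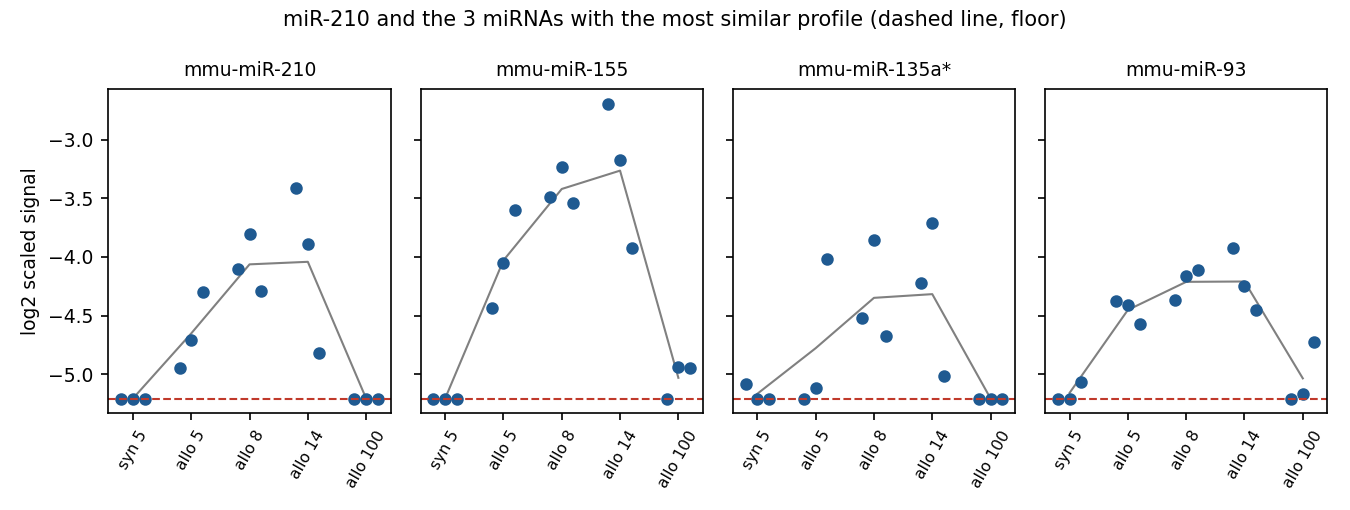
Log2 scaled signal of miR-210 and of the 3 miRNAs with the highest Pearson's r to it, miR-155, miR-135a* and miR-93. Each point is an array, the gray line joins the group means, and the dashed line is the floor. All 4 are at or near the floor in the syngeneic (syn 5) and day 100 (allo 100) grafts and highest in the allografts of day 8 or day 14 (allo 8, allo 14).

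Lists of miRNAs tied to hypoxia were read beside miR-210. The first holds 17 miRNAs reported to rise in hypoxic cultured cells, and 13 of them were tested. Against the syngeneic grafts, 3 rose and 0 fell on day 5, 5 rose and 1 fell on day 8, 4 rose and 2 fell on day 14, and 4 rose and 1 fell on day 100. Of the 13, 2 (miR-93 and miR-195) reached the test only through allograft groups. The median log2 difference of the 13 was 0.16, 0.44, 0.17 and 0.18 on these days, against 0.12, 0.14, 0.07 and 0 for all 103 miRNAs. The counts of called members, 3, 6, 6 and 5 of 13, can be set beside the 25.2%, 40.8%, 45.6% and 31.1% called among all miRNAs.

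Of this list, miR-23a and miR-27a, which are made from 1 transcript together with miR-24, rose on all 4 days. miR-23a was 1.72-fold higher than in the syngeneic grafts on day 5, 2.14-fold on day 8, 2.27-fold on day 14 and 1.84-fold on day 100 (SE 0.20 on the log2 scale, adjusted p from 0.00034 to 0.012, limma). The log2 difference of miR-27a was 0.83, 0.86, 1.33 and 0.65 (SE 0.17, adjusted p from 5.65e-05 to 0.019, limma). miR-93 rose by 0.71, 0.95 and 0.95 on days 5, 8 and 14 (SE 0.17), and its difference on day 100 was 0.12 (adjusted p = 0.60, limma). miR-24 rose on day 8 and day 14, and miR-107 on day 8.

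Not all members of the hypoxia list rose. miR-192, which hepatocytes make in large amounts and which the hepatocyte list holds too, fell by 0.47 on day 8, by 0.97 on day 14 and by 0.43 on day 100 (SE 0.13, adjusted p from 7.87e-05 to 0.026, limma). miR-26b fell by 0.74 on day 14. Without scaling, these differences were 0.16 on day 8 and 0.12 on day 100 for miR-192 and 0.04 on day 14 for miR-26b, and with quantile normalization that of miR-192 on day 8 was 0.40, so their sign depended on the scaling. miR-125b-5p and miR-195 rose on day 100, by 0.80 and 0.89, when miR-210 was not detected (adjusted p = 0.025 and 0.029, limma).

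The second list holds 7 miRNAs that act on HIF1A or on its stability, of which 4 were tested, and 3 rose on each of days 5, 8 and 14 while on day 100 0 were called by limma and 0 passed an unadjusted p of 0.05. Among all miRNAs tested, 18.4%, 23.3% and 27.2% were called higher on days 5, 8 and 14. Of the 4, 3 (miR-20b, miR-155 and miR-322) reached the test only through allograft groups in which every array detected them, as miR-210 itself did, and the 3 members that were not tested failed that filter, so the filter favors the count of rises. miR-20b, a member of the miR-106a cluster, rose by 1.16, 0.69 and 0.67 on days 5, 8 and 14 (SE 0.25). miR-155, undetected in the syngeneic grafts, was at least 1.78-fold, 2.71-fold and 3.02-fold higher on these days. miR-322, which targets cullin 2 and so stabilizes HIF1A, rose by 0.91 on day 8 and 1.33 on day 14 (SE 0.19), and miR-20a rose by 0.75 on day 5 (SE 0.22). With normexp, 0 of the 4 were called on any of these days. In that setting the median of the 429 undetected miRNAs was itself shifted, to -0.49, -0.49 and -0.61 on days 5, 8 and 14. The arrays measured no mRNA, so Hif1a and its other targets were not analysed here.

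**Figure D5:**
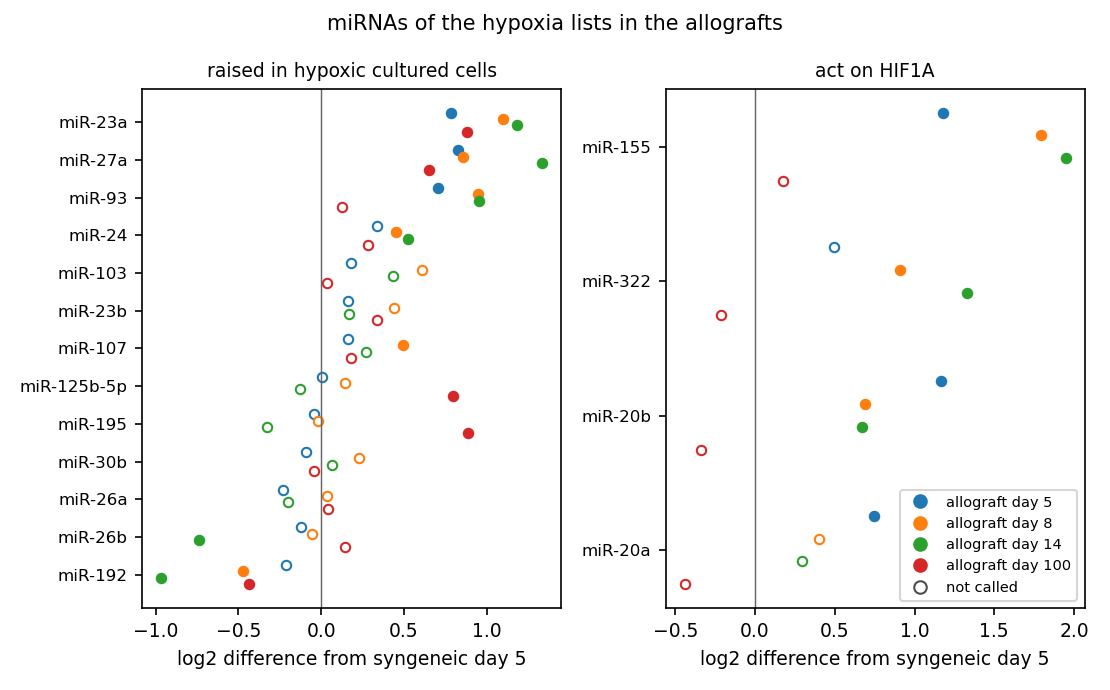
Log2 difference from the syngeneic grafts for the 13 tested miRNAs reported to rise in hypoxic cultured cells (left) and the 4 tested miRNAs that act on HIF1A (right). Colors are the 4 allograft days, and filled points have an adjusted p under 0.05 by limma. miR-23a and miR-27a are filled on all 4 days, while miR-155, miR-20b, miR-322 and miR-20a have only open points on day 100.

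Cell type markers also differed between the groups. Of 8 leukocyte miRNAs, 6 were tested, and 6, 4, 6 and 3 of them rose on days 5, 8, 14 and 100 against the syngeneic grafts, where 18.4%, 23.3%, 27.2% and 16.5% of all miRNAs tested were called higher. Of the 6, miR-155, miR-342-3p and miR-142-5p reached the test only through allograft groups, with detection in 0, 1 and 2 of 3 syngeneic grafts. The untested miR-150 and miR-181a failed that filter, so the filter favors the count of rises. The sum of the 8, in multiples of the scaling value, was 0.714 to 1.78 in the syngeneic grafts, 3.22 to 8.37 on day 5, 2.46 to 2.87 on day 8, 3.29 to 4.48 on day 14 and 1.25 to 1.67 on day 100. miR-150, a miRNA of mature lymphocytes, was detected in 0 grafts, and miR-155 belongs to this list as well. The highest sum was found on day 5, but the sums of day 5 and day 14 overlapped. The median log2 difference of the 6 tested from the syngeneic grafts was 1.87 on day 5 and 1.96 on day 14. The 6 hepatocyte miRNAs were all detected in every group, and 4, 6, 6 and 4 of them fell on days 5, 8, 14 and 100, where 6.8%, 17.5%, 18.4% and 14.6% of all miRNAs were called lower. The sum of the hepatocyte miRNAs was 31.1 to 37.0 in the syngeneic grafts and 13.6 to 17.6 on day 14. Some of these falls turned sign with another scaling: without scaling those of miR-122 and miR-194 on days 5 and 8, of miR-148a on day 5, of miR-192 on days 8 and 100 and of miR-194 on day 100, and with quantile normalization those of miR-122 on days 5, 8 and 14 and of miR-192 on day 8. Quantile normalization sets a value by its rank on the array alone, and miR-122 got the same 0.31 on day 8 and on day 14. In the main fit these differences were -0.42 and -1.05. A fall that leaves the rank in place is not seen with quantile normalization. Of 3 erythroid miRNAs, 2 were tested and disagreed. miR-451 rose on days 5, 8 and 14, while miR-144 fell on day 8 (log2 difference -1.57, adjusted p = 0.018, limma) and differed by 0.15, 0.01 and -1.26 on days 5, 14 and 100 without passing the test. miR-144 was detected in 3 of 3 syngeneic grafts, but in 0 of 3 on day 8 and 1 of 3 on day 100. The sizes of -1.57 and -1.26 thus rest on undetected signals, which the floor can set. Of the 5 endothelial and stromal miRNAs on the array, 2 were tested and 0 were called on any day by limma. At an unadjusted p under 0.05, 1 of them, miR-126-3p, passed on day 8 and on day 100. The part of these cell types in the values of miR-210 was not tested.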

How the data were processed

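Total RNA (100 ng per graft) was labeled with Cy3 and hybridized to Agilent mouse miRNA arrays in 1 color. The deposited files, from Feature Extraction (version 9.5.1.1, per the file headers), give a background-subtracted spot intensity on the linear scale, which the authors did not normalize between arrays, with detection, saturation and outlier flags. The methods name a filter on intensity and Student's t-test, and a normalization is not given in the sources used here. A deposited table of processed values for the series was not used.

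Spots were averaged per probe, leaving out flagged outliers, and summed over probes. The 75th percentile of the 52 miRNAs that every array detected was the divisor for each array, and log2 was taken after a floor at 2.70% of that value. A test was made for the 103 miRNAs that some group detected on each of its 3 arrays. One mean per group was fitted over all arrays (limma 3.58.1, R 4.3.3), with Benjamini-Hochberg adjustment within each comparison and a threshold of 0.05. Exact permutation tests used scipy 1.17.1 in Python 3.11.15 with numpy 2.4.6 and pandas 2.3.3. The fit and the exact test were tested on simulated data. The number of arrays limits the precision. Named miRNAs are miR-210, at most the 3 members of each list with the lowest adjusted p per allograft comparison with the syngeneic grafts (further called members of a hypoxia list were named after their values were seen), and the 3 with the highest and the 3 with the lowest Pearson's r to miR-210. miRNAs with the same detection pattern, miR-150 and the other cell type markers were also named after their values were seen. miR-210, the lists and the tests were chosen with earlier results of these data known.
Alternatives were 4 other scalings, 3 other probe summaries, other floors, filters and moderations, normexp, a fit of only the compared groups, the t-test of the methods, replicate number or slide as a block, and each array left out. The linear scale without a floor, and the adjustment of the t-test, were added after seeing the data. The replicate numbers do not pair the grafts.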

Additional observations from a re-analysis of the deposited data

Results flagged for a closer look

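The difference of miR-210 from the syngeneic grafts was not the same at all times after transplantation. It was larger on day 14 than on day 100 by 1.17 on the log2 scale and larger on day 8 than on day 100 by 1.15 (SE 0.28 each, adjusted p = 0.0060 and 0.015, limma with Benjamini-Hochberg adjustment). These are direct tests between the allograft groups, in which the shared syngeneic grafts cancel. However, all day 100 and all syngeneic grafts were set to the same floor. The fitted differences and their unadjusted p therefore equal those against the syngeneic grafts and are not a separate result. In both, 3 of 3 grafts of the earlier day were above 3 of 3 of day 100. Both pairs of groups lay on different slides, and neither difference was called with slide as a block, with a doubled floor or under normexp. The adjusted t-test of the methods did not call day 14, and without replicate 2 of day 8 the fit did not call day 8.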

How the results depend on the processing

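Values are log2 differences of miR-210. Day 14 against day 8 had no stable sign, at -0.063 with quantile normalization, -0.0314 with the brightest probe, -0.0262 with the software's total signal, -0.0651 with normexp and -0.29 to 0.41 with 1 array left out. For 2 groups miR-210 lay on the floor. With the floor multiplied by 2, the differences from the syngeneic grafts were 0.17 on day 8 (limma adjusted p = 0.56) and 0.37 on day 14 (adjusted p = 0.091), those from day 100 were 0.17 (adjusted p = 0.52) and 0.37 (adjusted p = 0.0820), and the F was 2.11 (adjusted p = 0.21). With the floor divided by 4, day 5 exceeded the syngeneic grafts by 2.09 (adjusted p = 0.0083) and day 100 by 2.20 (adjusted p = 0.0084). With the software's total signal these were 0.87 (adjusted p = 0.032) and 0.87 (adjusted p = 0.0304). On the linear scale without a floor, day 5 exceeded day 100 by 5.34 percentage points (adjusted p = 0.045), with the noisy array of day 100 included. Under normexp the differences from the syngeneic grafts were -0.25 on day 5, -0.10 on day 8 and -0.17 on day 14, those from day 100 were 0.33 on day 8 (adjusted p = 0.59) and 0.26 on day 14 (adjusted p = 0.43), and the F was 1.01 (adjusted p = 0.46). The median of the 429 undetected miRNAs was then -0.49, -0.49 and -0.61 on days 5, 8 and 14, and miR-210 lay 0.25, 0.39 and 0.45 above it.

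With slide as a block, day 14 against day 100 (1.17, adjusted p = 0.15) and day 8 against day 100 (1.15, adjusted p = 0.18) were not called. The methods' t-test gave an unadjusted p of 0.042 for the difference of 0.56 of day 5 from the syngeneic grafts and of 0.56 from day 100. For day 14 its unadjusted p was 0.047 against either group (1.17). After adjustment it was 0.12 against the syngeneic grafts and 0.095 against day 100. With the replicate block, day 8 differed from the syngeneic grafts by 1.15 (limma adjusted p = 0.011) and day 14 by 1.17 (adjusted p = 0.00754). Both were still called, and the block changed no call of miR-210. Same-numbered grafts did not deviate together (mean correlation -0.06, from -0.65 to 0.45), so the numbers do not pair them.

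Leaving out 1 array gave 1.01 to 1.26 for day 8 and 0.85 to 1.56 for day 14, against the syngeneic grafts as against day 100, 0.38 to 0.70 for day 5 against either, 0.30 to 1.00 for day 14 against day 5, 0.44 to 0.77 for day 8 against day 5, and 6.76 to 22.5 for the F. Without replicate 3 of day 14, day 5 against day 100 was called (adjusted p = 0.045). Without scaling, the median of all miRNAs tested shifted to 0.54, 0.69 and 0.71 on days 5, 8 and 14, and miR-210 lay 0.09, 0.63 and 0.78 above it. The numbers of miRNAs called against the syngeneic grafts were 26, 42, 47 and 32 on days 5, 8, 14 and 100. Over the other settings they ran from 1 to 27, 20 to 46, 31 to 55 and 2 to 43, and with 1 array left out, from 19 to 29, 29 to 48, 37 to 51 and 11 to 38. For the hypoxia list they ran from 0 to 4, 3 to 8, 4 to 7 and 0 to 5. Without syngeneic replicate 2 or day 100 replicate 3, 1 of that list was called on day 100. Without a filter, 187 miRNAs above the floor on some array were fitted. Signal over background limits what can be read below the floor.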
